A study of Mus musculus with 16 samples.

Results

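Car1, Car3, Slc1a7, Gstt4, Lipn and Slc30a3 are 6 genes for enzymes and transporters that are seldom discussed in pain research. They were chosen by their RNA in the dorsal root ganglia (DRGs), which was at least 4-fold higher after spared nerve injury (SNI) than after sham surgery in saline-treated mice, and they are 6 of the 52636 genes listed in the count tables. All 6 were among the 21371 genes that passed a filter on low counts and were tested. The study asked how desipramine (DMI), a tricyclic antidepressant that blocks noradrenaline reuptake, acts on DRGs after prolonged neuropathy. It comprised 16 bulk RNA-sequencing libraries, each from the L3-6 DRGs of 1 male C57BL/6J mouse aged 3 to 4 months, in 4 groups of 4 mice. The Sham-Saline group had sham surgery and vehicle, and the SNI-Saline group had the common peroneal and sural branches of the left sciatic nerve ligated and cut, followed by vehicle. The Sham-DMI and SNI-DMI groups had the same surgeries and received DMI at 15 mg/kg intraperitoneally, 2 times per day for 3 weeks. Treatment began 4 weeks after surgery according to the sample labels and the study's abstract and results. Its methods alone give 4 months. No mouse was free of surgery, and the ganglia hold neurons with spared axons beside those with cut axons.

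The DRG holds the cell bodies of sensory neurons together with satellite glia, Schwann cells, vessels and immune cells. When a peripheral axon is cut, its neuron starts a transcriptional programme in which the transcription factor Atf3, neuropeptides such as Gal and Npy, and growth-associated genes such as Sprr1a and Sox11 are induced. The 6 genes have little in common in textbook biology. Car1 and Car3 encode cytosolic carbonic anhydrases, which interconvert carbon dioxide and bicarbonate, and Gstt4 encodes a glutathione transferase of the theta class. Lipn encodes a member of the acid lipase family known from the epidermis. Slc1a7 encodes EAAT5, a glutamate transporter of the retina with a large chloride conductance, and Slc30a3 encodes ZnT3, which loads zinc into the synaptic vesicles of glutamatergic neurons.

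Read pairs on genes ranged from 41194238 in Sham-DMI replicate 3, the shallowest library, to 73920332 in replicate 2 of the same group. In the sample labels the tissue is spinal cord, whereas the cell type is dorsal root ganglia. Levels are given as CPM, a gene's counts relative to its library's total over the tested genes, scaled by edgeR's TMM factor. This lets libraries of different depth be compared. The summed level of 7 sensory neuron markers was 7708 to 10420 CPM, against 7.75 to 14.9 CPM for 5 markers of spinal cord glia. Of these glial markers Olig2 and Opalin were too low to be tested. The 8 markers of injured sensory neurons had a mean log2 CPM of 2.48 to 3.21 in Sham-Saline and 5.31 to 5.46 in SNI-Saline. In Sham-DMI the same mean was 3.35, 4.28, 3.36 and 4.14 in replicates 1 to 4, so that all 4 libraries stood above every Sham-Saline library, replicates 2 and 4 the most. In SNI-DMI it was 5.64, 5.27, 5.16 and 5.91. The sample titles carry numbers, whose meaning they do not give, from 17 to 20 in Sham-DMI, 21 to 24 in SNI-DMI, 33 to 36 in SNI-Saline and 37 to 40 in Sham-Saline. Whatever these numbers stand for cannot be told apart from surgery or treatment. In bulk tissue, a change in the number of cells of a type and a change in RNA per cell cannot be told apart either.

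SNI-Saline and Sham-Saline are the libraries that chose the genes, so their values are given without a test. SNI-DMI and Sham-DMI are other libraries, and the injury effect under DMI was tested between them. The test was not fully independent of the choice, because the filter on low counts and the estimate of the spread used all 16 libraries. The genes were also chosen with earlier results of these data known. Tests used edgeR's quasi-likelihood test over all 21371 genes with Benjamini-Hochberg adjustment and a threshold of 0.1 on the adjusted p. Beside it, an exact two-sided permutation test compared log2 CPM of 4 mice with 4, for which the smallest possible p is 0.0286. Fold changes are log2 values with their standard error (SE). In SNI-DMI all 6 genes had a higher mean than in Sham-DMI, and 4 of the 6 (Car1, Car3, Lipn and Slc30a3) passed the test. Slc30a3 reached the test only through the saline libraries, since in the 8 DMI libraries alone it fell to the filter. Its call is therefore not independent of the choice. The same holds for its part in the shares, the median and the ranks given for the 6 under DMI. Of all genes tested, 0.374% were called higher in this comparison. The SNI-DMI and Sham-DMI libraries did not overlap for 5 of the 6, against 2.89% of all genes. The median log2 fold change of the 6 was 1.71, and that of all genes was 0.00071.

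**Figure D1:**
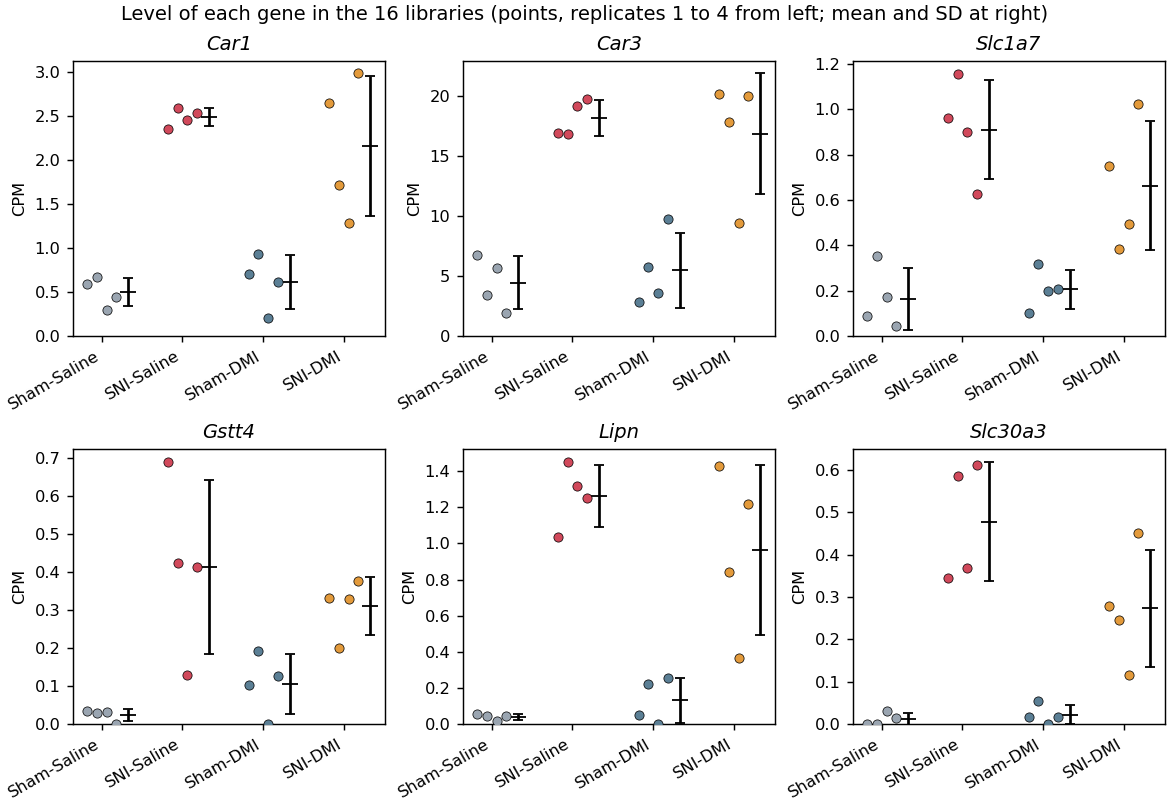
CPM of each of the 6 genes (vertical axis, starting at 0) in the 16 libraries by group. Points are mice in the order of replicates 1 to 4, and the bar at the right of each group gives the mean and SD (n = 4). Every SNI-Saline library lies above every Sham-Saline library, and SNI-DMI overlaps Sham-DMI only for Car3, where replicate 3 of SNI-DMI (9.42 CPM) lies below replicate 4 of Sham-DMI (9.71 CPM).

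The calls under DMI rested on few mice. Without SNI-DMI replicate 4, which had the highest injured neuron markers, none of the 6 genes passed (edgeR adjusted p from 0.135 to 0.473), although 5 had an unadjusted p under 0.05, and without SNI-DMI replicate 1 only Slc30a3 did. Without Sham-DMI replicate 3, the shallowest library, only Lipn and Car1 remained, and without SNI-DMI replicate 2 Slc1a7 passed as well, which made 5. When edgeR was fitted to the 8 DMI libraries alone, none of the 5 genes left in that fit passed (edgeR adjusted p from 0.199 to 0.428), although all 5 had an unadjusted p under 0.05, and Slc30a3 fell to the filter. DESeq2 on all 16 libraries called 4 (Car1, Car3, Lipn and Slc1a7) and gave Slc30a3 no adjusted p. The direction was the same for every gene in each of these fits that held it. Calls among all genes changed with the fit too, from 86 of 21371 in the analysis reported. They were 17 without SNI-DMI replicate 4, 27 without SNI-DMI replicate 1 and 27 without Sham-DMI replicate 3. Without SNI-DMI replicate 2 they were 207, with edgeR on the 8 DMI libraries 9 of 20303, and with DESeq2 502.

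Car1, the carbonic anhydrase best known from red blood cells, lies on the minus strand of chr3:14766216-14808368 (mm10; ENSMUSG00000027556). In replicates 1 to 4 its level was 0.591, 0.663, 0.296 and 0.438 CPM in Sham-Saline and 2.36, 2.59, 2.46 and 2.54 CPM in SNI-Saline. Under DMI it was 0.700, 0.933, 0.200 and 0.615 CPM in Sham-DMI and 2.65, 1.72, 1.29 and 2.98 CPM in SNI-DMI. Every injured mouse thus lay above every sham mouse, whichever treatment it had received, and the SNI-Saline mice were the most alike (2.49 ± 0.102 CPM, SD, n = 4, against 2.16 ± 0.792 CPM in SNI-DMI). The injury effect was 2.32 (SE 0.328) on the log2 scale under saline. Under DMI it was 1.77 (SE 0.322), with an adjusted p of 0.0258 by edgeR's quasi-likelihood test and an exact permutation p of 0.0286. Car1 overlaps the pseudogene Gm16399 on the same strand, which had 4 to 24 counts per library where Car1 had 8 to 198.

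Car3, a carbonic anhydrase of low activity that is abundant in skeletal muscle and fat, lies next to Car1 on the plus strand of chr3:14863512-14872523 (ENSMUSG00000027559), 55.1 kb away. It had 388, 238, 362 and 125 counts in Sham-Saline (4.41 ± 2.19 CPM) and 931, 1030, 1191 and 1290 counts in SNI-Saline (18.1 ± 1.52 CPM). The sham mice differed from each other more than the injured mice did. The counts were 163, 417, 143 and 616 in Sham-DMI (5.45 ± 3.10 CPM) and 1153, 1160, 571 and 1327 in SNI-DMI (16.8 ± 5.05 CPM). Of the SNI-DMI mice 3 lay above all Sham-DMI mice, and replicate 3 did not. The injury effect was 2.05 (SE 0.360) under saline, just inside the 4-fold threshold of 2, and it was 1.94 without Sham-Saline replicate 2 and 1.80 without replicate 4. Under DMI it was 1.61 (SE 0.355; edgeR adjusted p 0.0772, exact permutation p 0.0571). Among the related genes described further on, the one closest under the threshold was the zinc importer Slc39a12, at 1.83 (SE 0.613) under saline and at -0.23 (SE 0.707; edgeR adjusted p 0.926) under DMI.

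Slc1a7, the retinal glutamate transporter, lies on the plus strand of chr4:107968332-108013532 (ENSMUSG00000008932). Its level was 0.0870, 0.353, 0.171 and 0.0453 CPM in Sham-Saline and 0.960, 1.16, 0.900 and 0.627 CPM in SNI-Saline. It was 0.103, 0.316, 0.200 and 0.205 CPM in Sham-DMI and 0.749, 0.383, 0.495 and 1.03 CPM in SNI-DMI. Injured and sham mice did not overlap under either treatment, although the gap under DMI was narrow, between 0.316 and 0.383 CPM. The injury effect was 2.43 (SE 0.456) under saline, or 3.15 without Sham-Saline replicate 2, and 1.66 (SE 0.454) under DMI. The effect under DMI missed the threshold in edgeR's quasi-likelihood test (adjusted p 0.164, exact permutation p 0.0286), and it passed in DESeq2 (1.67, adjusted p 0.0274) and in edgeR without a filter on low counts (adjusted p 0.0591).

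Slc30a3, the vesicular zinc transporter, lies on the minus strand of chr5:31086106-31108237 (ENSMUSG00000029151) and was close to absent in sham mice. It had 0, 0, 2 and 1 counts in Sham-Saline and 19, 36, 23 and 40 counts in SNI-Saline. It had 1, 4, 0 and 1 counts in Sham-DMI and 16, 16, 7 and 30 counts in SNI-DMI. The lowest injured mouse had 7 counts and the highest sham mouse 4. A count of 0 allows up to 3 counts, which is 0.0522 and 0.0423 CPM in the first 2 Sham-Saline libraries and 0.0749 CPM in Sham-DMI replicate 3. With saline the mean was 0.0116 ± 0.0149 CPM after sham surgery and 0.478 ± 0.140 after injury, and with DMI it was 0.0219 ± 0.0233 and 0.273 ± 0.139. Over the summed counts, 3 against 118, the ratio under saline was 41.7 with an exact 95% interval of 13.9 to 205. Under DMI 6 counts stood against 69, a ratio of 10.8 (4.73 to 30.5). These intervals cover counting error only. The fitted log2 values were 5.14 (SE 0.667) under saline and 3.35 (SE 0.630) under DMI, the latter with an adjusted p of 0.0334 in edgeR's quasi-likelihood test and an exact permutation p of 0.0286. Slc30a3 did not pass the filter on low counts in the 8 DMI libraries alone, so that its adjusted p depends on the SNI-Saline libraries that chose it having been in the fit. Without Sham-Saline replicate 3 the value under saline was 6.08, and without Sham-DMI replicate 2 that under DMI was 4.28. On the opposite strand Slc30a3 overlaps Dnajc5g, with 0 to 4 counts, and Gm9924, with 0 to 1.

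Lipn, the epidermal lipase, lies on the plus strand of chr19:34067358-34084918 (ENSMUSG00000024770). It had 3, 3, 1 and 3 counts in Sham-Saline and 57, 89, 82 and 82 counts in SNI-Saline. In Sham-DMI it had 3, 16, 0 and 16 counts, and in SNI-DMI 82, 55, 22 and 81. Sham-DMI replicates 2 and 4, with 16 counts each, were above every Sham-Saline mouse, and these were also the replicates with the higher injured neuron markers. Under saline the mean was 0.0388 ± 0.0161 CPM in sham and 1.26 ± 0.174 CPM in injured mice, which is 4.96 (SE 0.594) on the log2 scale. Under DMI it was 0.131 ± 0.124 CPM in Sham-DMI and 0.964 ± 0.469 CPM in SNI-DMI, which is 2.74 (SE 0.498; edgeR adjusted p 0.0258, exact permutation p 0.0286). The miRNA gene Gm23334 inside Lipn had 0 counts in every library.

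Gstt4, the theta-class glutathione transferase, lies on the minus strand of chr10:75814943-75822543 (ENSMUSG00000009093). It had 2, 2, 2 and 0 counts in Sham-Saline and 38, 26, 8 and 27 counts in SNI-Saline. It had 6, 14, 0 and 8 counts in Sham-DMI and 19, 13, 20 and 25 counts in SNI-DMI. By counts, SNI-DMI replicate 2 (13) lay below Sham-DMI replicate 2 (14), which was the deeper library, and on the CPM scale the groups were parted by 0.1991 against 0.1921. The injury effect was 4.03 (SE 0.694) under saline. Under DMI it was 1.43 (SE 0.561) and missed the threshold in edgeR's quasi-likelihood test (adjusted p 0.317, exact permutation p 0.0286). Gstt4 lies between its paralogs Gstt1 and Gstt2, and reads that map equally well to several of them could not be assigned, so its level is uncertain to that extent.

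The sequences before the start of 2 of the genes are shown because their injury effects under saline were among the largest and their RefSeq start equals that of an annotated transcript in the GENCODE annotation used for the coordinates. They are the 250 bases upstream of the start from RefSeq (GRCm38.p6), at chr19:34067108-34067357 on the plus strand for Lipn and chr10:75822544-75822793 on the minus strand for Gstt4. Capitals mark a match to the AP-1 motif TGANTCA, which Jun and Atf3 dimers are known to bind.
Lipn: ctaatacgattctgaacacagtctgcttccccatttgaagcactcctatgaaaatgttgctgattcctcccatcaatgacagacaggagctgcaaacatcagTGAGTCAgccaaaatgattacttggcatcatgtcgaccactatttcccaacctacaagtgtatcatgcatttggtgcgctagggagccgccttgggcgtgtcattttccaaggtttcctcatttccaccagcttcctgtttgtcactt
Gstt4: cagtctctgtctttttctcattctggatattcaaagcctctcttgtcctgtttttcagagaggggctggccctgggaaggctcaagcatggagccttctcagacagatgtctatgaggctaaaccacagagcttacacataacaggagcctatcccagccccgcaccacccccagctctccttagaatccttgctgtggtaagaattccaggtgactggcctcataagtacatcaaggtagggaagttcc
The windows searched on both strands run from 250 bases before to 50 after each start, and 4 of the 6 genes had one or more of them (5 windows). The single AP-1 match began 148 bases before the start of Lipn, and 7.81% of 32851 windows of all genes held one. The CRE motif TGACGTCA was in none of the 5 windows and in 1.79% of all windows. A match is a description of letters and not of binding.

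**Figure D2:**
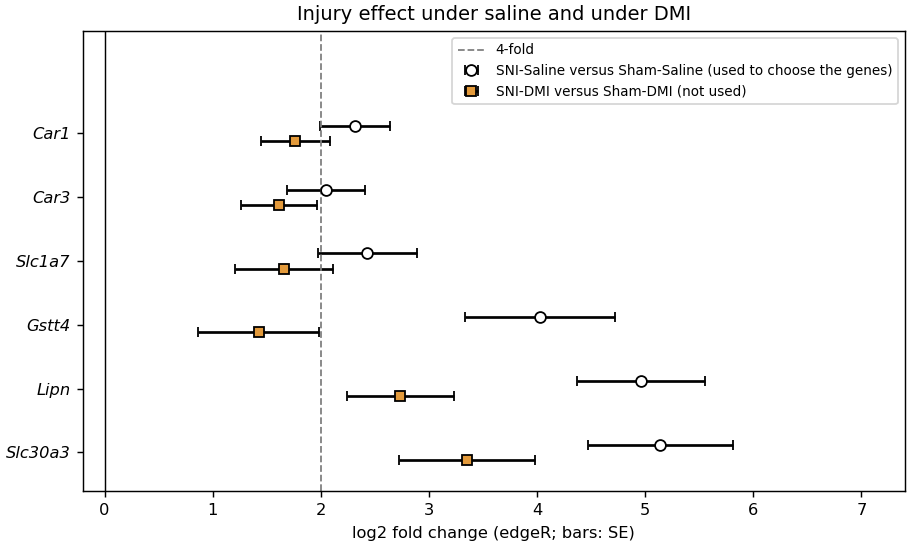
Log2 fold change of each gene between injured and sham mice (horizontal axis, bars are SE) under saline and under DMI. The 4-fold rule that chose the genes used the saline libraries and not the DMI libraries. Slc30a3 passed the filter on low counts only through the saline libraries. The dashed line marks 4-fold. All 6 effects under saline lie above it, and under DMI Lipn (2.74) and Slc30a3 (3.35) do.

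By construction all 6 genes reached 4-fold under saline, as did 0.192% of all genes, and the groups did not overlap for any of them, as for 7.67% of all genes. Under DMI 2 of the 6 reached 4-fold, Lipn and Slc30a3, as did 0.271% of all genes. Slc30a3 was in this fit only through the saline libraries. Among all genes ranked by their fold change under DMI, Slc30a3 stood at place 21, Lipn at 32, Car1 at 83, Slc1a7 at 100, Car3 at 104 and Gstt4 at 142.

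The effect of DMI itself is described without a test, because the saline libraries were used to choose genes that are high in SNI-Saline and low in Sham-Saline, which pulls both DMI comparisons to one side. From SNI-Saline to SNI-DMI the fitted log2 change was positive for 49% of all genes and negative for all 6, with a median of -0.40 over the 6. It was smallest for Car3 (-0.11, SE 0.338), where it turned to 0.11 without SNI-DMI replicate 3, and largest for Slc30a3 (-0.80, SE 0.433). From Sham-Saline to Sham-DMI it was positive for 46.7% of all genes and for all 6, with a median of 0.67 over the 6. Between the same groups 6 of the 8 injured neuron markers were called higher, with a median of 0.96, where 11.6% of all genes were called higher, and their part in the values of the 6 genes was not tested. The values were 2.20 (SE 0.793) for Gstt4 and 1.83 (SE 0.729) for Lipn, and between 0.32 and 0.99 for the other genes. That of Slc1a7 (0.32, SE 0.508) was 1.03 without Sham-Saline replicate 2. That of Car3 turned to -0.09 without Sham-DMI replicate 4, and that of Slc30a3 was 0.08 without Sham-DMI replicate 2 and 1.93 without Sham-Saline replicate 3. For each of the 6, the libraries of SNI-DMI overlapped those of SNI-Saline, and the libraries of Sham-DMI overlapped those of Sham-Saline. The share of all genes that overlapped in this way was not counted, so the overlap is not a result about the 6. The fitted injury effect under DMI minus that under saline was negative for all 6, with a median of -1.28. It ran from -0.43 (SE 0.495) for Car3 to -2.61 (SE 0.936) for Gstt4, and was positive for 51.3% of all genes.

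In order of their means, all 6 genes ran from Sham-Saline through Sham-DMI and SNI-DMI to SNI-Saline. The choice of the genes itself pulls Sham-Saline and SNI-Saline to the ends of this order. The share of all genes with the same order was not counted, so the order is a description only. The gap between Sham-DMI and SNI-DMI exceeded the larger SD of the pair for all 6. Between the sham groups it did so only for Gstt4, and between the injured groups only for Slc30a3. The same mice recurred as the high and the low ones. In SNI-DMI replicates 1 and 4 were the upper pair for 6 of 6 genes, while the lowest mouse was replicate 3 for 4 genes and replicate 2 for the other two. In Sham-DMI replicate 2 was in the upper pair for 6 of 6 and replicate 3 was lowest for 4.

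Markers of injured neurons were higher in injured mice as well, and their part in these results was not tested. Of the 8 markers 6 were called higher in SNI-DMI than in Sham-DMI, where 0.374% of all genes were. In SNI-Saline 7 were called higher than in Sham-Saline, where 5.85% of all genes were. Within groups, each library's deviation of log2 CPM from its group mean was compared between each gene and each of 10 marker lists, which gave 60 relations over 16 libraries. Slc1a7 with the injured neuron markers passed, with a Pearson r of 0.778 (permutation p within groups 0.00038, Benjamini-Hochberg adjusted p 0.0228) and a Spearman rho of 0.80 (permutation p 0.0006, adjusted p 0.036). Without the 2 libraries farthest from the median of the list in level (Sham-Saline replicates 1 and 4) r was 0.772. They were not picked by their deviation from the group mean, and Sham-Saline replicate 2, with deviations of 1.23 (Slc1a7) and 0.4465 (list), stayed in. This check therefore cannot tell how much r depends on such libraries. With the same markers the other 5 genes had r between 0.532 (Slc30a3) and 0.746 (Lipn). They did not pass (adjusted permutation p from 0.426 to 0.609). No relation with another list passed. The highest r with another list was 0.511 for Car1, 0.365 for Gstt4 and 0.547 for Lipn, each with red cell markers. It was 0.5615 for Car3 (fat), 0.617 for Slc1a7 (satellite glia) and 0.509 for Slc30a3 (keratinocytes).

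**Figure D3:**
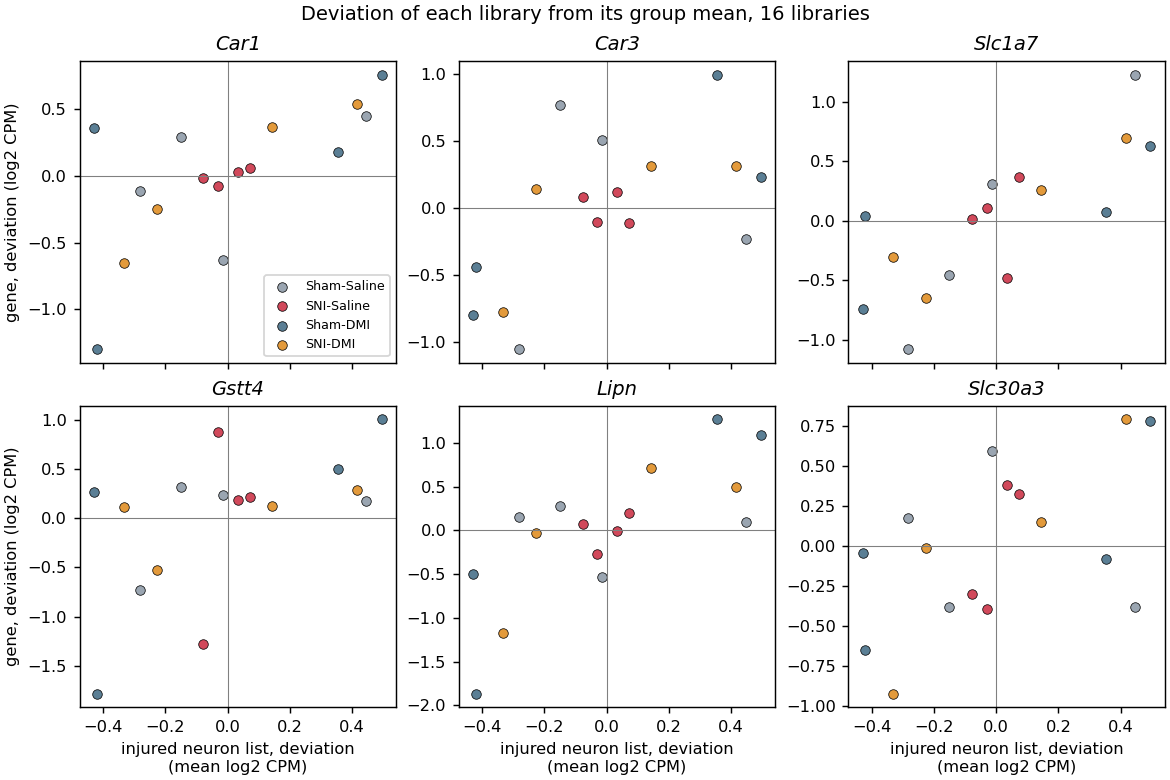
Deviation of each library from its group mean for each gene (vertical axis, log2 CPM) against that of the mean of 8 injured neuron markers (horizontal axis, log2 CPM). Points are 16 libraries coloured by group. Pearson r is 0.778 for Slc1a7, and between 0.532 and 0.746 for the other genes, which did not pass the test.

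Several of the genes are known from cell types other than neurons. No marker of red cells (0 of 7), fat (0 of 5), skeletal muscle (0 of 6) or keratinocytes (0 of 4) was called between SNI-DMI and Sham-DMI, where 0.402% of all genes were called in either direction, so that 0 calls among so few markers is near the background. With saline, the sum of the red cell markers ranged from 35.9 to 131 CPM in sham and 64.9 to 122 CPM in injured mice. With DMI it ranged from 27.8 to 112 and 33.04 to 89.3 CPM. The sum of the fat markers was 1.87 to 5.70, 1.20 to 8.67, 1.08 to 12.8 and 1.06 to 2.88 CPM in the same order. Muscle markers summed to 275 CPM in SNI-DMI replicate 2 and to 2.77 to 3.71 CPM in the other SNI-DMI mice, while Car3 was at 17.8 CPM in that mouse and at 20.1 CPM in replicate 1. The muscle sum was 3.48 to 4.77 CPM in the Sham-DMI mice, 2.27 to 49.1 in Sham-Saline and 3.58 to 77.2 in SNI-Saline. Of the keratinocyte markers Krt5 had no counts in any library. Their sum was 3.88 to 5.84, 4.96 to 5.90, 4.35 to 6.64 and 5.33 to 6.40 CPM in the 4 groups. The part of these cell types in the levels of the 6 genes was not tested.

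The lists of related genes comprised 98 genes beside the 6, of which 84 were tested. Under DMI 1 of the 84 was called, and it was higher (1.19%, against 0.402% of all genes in either direction and 0.0281% that were lower). This was Gstm1, a glutathione transferase of the mu class, which was higher by 0.24 (SE 0.0516; edgeR adjusted p 0.0715). It was not called in edgeR on the 8 DMI libraries, with the replicate number as a block, after removal of GC and length trends, or without Sham-DMI replicate 2 or 3 or SNI-DMI replicate 1 or 4. Under saline 10 of 84 were called (11.9%, against 12% of all genes). Of these 8 were higher, namely the metallothioneins Mt1, Mt2 and Mt3, Gpx1, Ggt5, Gstm4, Gstm1 and Slc39a12, and Slc4a4 and Slc39a10 were lower, where 6.18% of all genes were lower. From SNI-Saline to SNI-DMI 2 were higher, where 1.32% of all genes were, and 1 was lower, where 1.61% were (2.93% in either direction). From Sham-Saline to Sham-DMI 12 were higher and 9 lower (11.6% and 11.9% of all genes, 23.4% in either direction). No other carbonic anhydrase (12 tested), Slc1a transporter (6), acid lipase (4) or zinc exporter (7) was called in either injury comparison.

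Per kb of exon, the 6 genes were minor members of their families. Car3 moved from place 7 of 16 carbonic anhydrases in Sham-DMI (1.90 CPM per kb) to place 4 in SNI-DMI (5.87), and Car1 from place 11 (0.490) to place 8 (1.73), with Car2 and Car11 at the top. Slc1a7 was the lowest of 7 Slc1a transporters in all 4 groups. It stood at 0.0612 CPM per kb in Sham-DMI and 0.197 in SNI-DMI, while Slc1a4, a neutral amino acid transporter, was at 23.7 and 26.1. Gstt4 held place 17 of 22 glutathione transferases in Sham-DMI and 16 in SNI-DMI. Lipn, at place 4 of 9 acid lipases, went from 0.0694 to 0.512 CPM per kb beside the lysosomal lipase Lipa at 12.5 and 11.6. Slc30a3 went from place 8 to place 7 of 10 zinc exporters, from 0.00774 to 0.0963 CPM per kb, and the most abundant exporter was Slc30a9 (19.7 and 18.4).

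**Figure D4:**
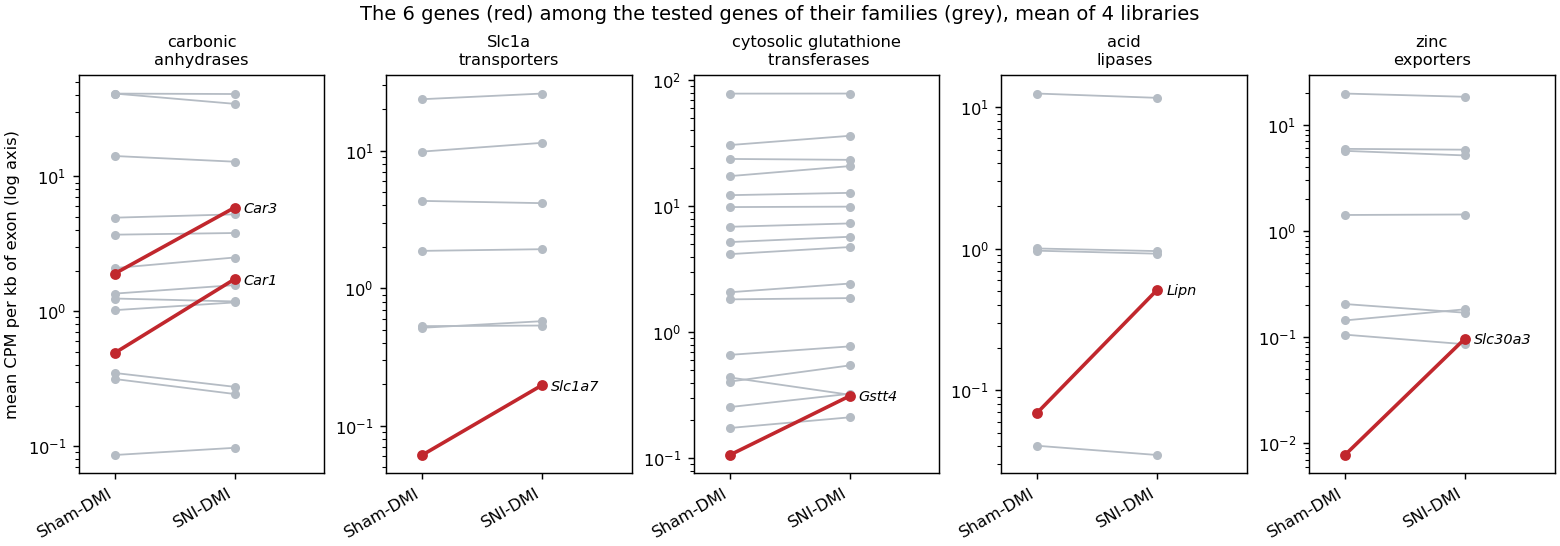
Mean level per kb of exon (logarithmic vertical axis, n = 4) of the tested genes of 5 families in Sham-DMI and SNI-DMI mice. The 6 genes are in red and their relatives in grey. The red line of Slc1a7 runs from 0.0612 to 0.197 and that of Car3 from 1.90 to 5.87 CPM per kb. Of the grey lines only that of Gstm1 stands for a called change.

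Of the tested genes next to the 6 on their chromosomes, other than the 6 themselves, Ucn alone was called under DMI. Car13 and Car2, which flank Car1 and Car3, changed by 0.04 (SE 0.121) and -0.25 (SE 0.103) under DMI, and neither was called. Ucn, which encodes the peptide urocortin and lies 29.8 kb from Slc30a3, was higher by 3.50 (SE 0.370; edgeR adjusted p 0.000432) under DMI. Cpt2 and Podn beside Slc1a7, Gstt1 and Gstt2 beside Gstt4, Lipk and Stambpl1 beside Lipn, and Cad beside Slc30a3 were not called.

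Across the 16 libraries the 6 genes were correlated with each other, with Pearson r of log2 CPM between 0.805 and 0.967 over 15 pairs. The points share that they come from injured and sham mice, between which all of these genes differ in mean, and neither these values nor those that follow carry a test. The genes most like Car1 were Star, which moves cholesterol into mitochondria (r = 0.970), and Ucn (0.959). Star (0.972) and Hrk, a BH3-only cell death gene (0.971), were most like Lipn, and Hrk and the receptor gene Gpr151 (both 0.951) most like Slc30a3. Atf3 (0.946) and Gpr151 (0.942) were closest to Car3, Npy (0.932) and the predicted gene Gm34583 (0.922) to Slc1a7, and the cholecystokinin receptor gene Cckbr (0.914) and Sprr1a (0.902) to Gstt4.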

How the data were processed

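The 6 genes, the lists of related genes and the markers were chosen with earlier results of these data known. Stranded mRNA libraries were read by the authors as pairs of 50 bases. The NGS-Data-Charmer pipeline placed them on mm10. Per the labels, HISAT2 and HTSeq were among the tools. The deposited values are raw counts per Ensembl gene, without normalization. The use of strand in counting and the annotation release are not given in the sources used here. The 5 lines of reads not assigned to genes were left out, and 79.56% to 81.17% of read pairs were on genes. Symbols, positions and exon lengths come from GENCODE M21.

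Counts were filtered with filterByExpr (21371 genes), scaled by TMM and fitted with edgeR 4.0.16 (glmQLFit, R 4.3.3) with 1 coefficient per group on all 16 libraries. Log2 CPM used a prior count of 2. The p-values measure the spread between mice. Replicates of the same group differed by 10.4 to 44.3 in chi-square per gene, so none was a repeat deposit of another in its group. Libraries of different groups were not compared in this way. On simulated data for SNI-DMI versus Sham-DMI with 21371 genes, 88% of 2-fold and 100% of 4-fold increases were recovered, with 11.4% false among 211 calls. The 200 changed genes were drawn at random from all tested genes, so these shares do not describe genes with counts near 0. Genes named are the 6, the 2 most alike to each by Pearson r, the nearest tested neighbours, called related genes and the related gene closest under 4-fold. The other related genes called under saline were named after their values were seen. Alternatives were upper-quartile and DESeq2 scaling, no filter, at least 10 counts in every library, DESeq2 1.42.0, edgeR on 8 libraries, a replicate block, 1 surrogate variable (sva 3.50.0), GC and length trends, a prior count of 0.5, CPM by raw library size, and each library left out in turn.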

Additional observations from a re-analysis of the deposited data

Results flagged for a closer look

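Of the 24 sets of 4 libraries tested (6 genes in 4 groups), 2 held a library far from the others by Dixon's test (the ratio of the gap to the range above the 95% critical value for 4 samples), where chance gives about 1 in 20. For Car3 in SNI-DMI the ratio was 0.837, from replicate 3 at a log2 CPM of 3.24 against 4.15 to 4.33 in the other mice. In CPM these are 9.42 against 17.8 to 20.1. For Gstt4 in Sham-Saline the ratio was 0.859, from replicate 4 with 0 counts against 2 in each of the others. The log2 value of a 0 count is set by the prior count. Depth cannot resolve this difference, since a count of 0 allows up to 3.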

How the results depend on the processing

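Under DMI the 6 injury effects were positive in every fit that held the gene. Of the 6 genes 4 were called in the analysis reported. The number was 1 with at least 10 counts in every library (which kept Car3 alone). It was 0 with edgeR on the 8 DMI libraries, and 0 to 5 with 1 library left out. Over all genes 86 were called in the analysis reported, and 81, 9 and 17 to 850 in these fits in that order. On the 8 libraries Car1 (1.78), Car3 (1.62) and Lipn (2.75) were no longer called. Slc1a7 passed without a filter (1.66) and in DESeq2 (1.67). With 1 library left out the log2 fold changes were 1.53 to 2.05 for Car1, 1.38 to 2.04 for Car3 and 1.35 to 1.98 for Slc1a7. They were 2.44 to 3.16 for Lipn and 2.98 to 4.28 for Slc30a3. For Gstt4, which was never called, they were 1.12 to 1.88 (edgeR adjusted p from 0.246 to 0.541). Under saline 1 gene was at least 4-fold with 10 counts in every library. With 1 library left out, Slc30a3 ranged from 4.75 to 6.08 under saline, from 0.082 to 1.93 for DMI in sham mice and from -2.72 to -0.87 for the difference between injury effects, and Slc1a7 from 2.12 to 3.15 under saline, from 0.0078 to 1.03 for DMI in sham mice and from -1.49 to -0.46 for that difference. Same-numbered mice did not pair (correlations of deviations from -0.0813 to 0.184). With the replicate block 3 genes were called, and Car3 (1.62, edgeR adjusted p 0.12) was not.

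Of the related genes, 10 were called under saline, 6 after removal of GC and length trends, and 3 to 13 with 1 library left out. Under DMI 1 was called, 2 without a filter, 3 in DESeq2, 0 on 8 libraries, with the block or after trend removal, and 0 to 2 with 1 library left out. For DMI in SNI mice 3 were called, 1 with the block or after trend removal, and 0 to 4 with 1 library left out. The causes were not tested. Genes with counts near 0 in sham mice (Slc30a3, Lipn and Gstt4) are limited by depth.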
